A study of Mus musculus with 6 samples.

Results

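Transcript assembly joins RNA sequencing reads into loci, and some of these match no gene with a symbol. Of 53135 features in the tables of 6 mouse Sertoli libraries, 3018 were assembled loci whose transcripts all lacked a gene name, and 519 of these are described here. They were taken by structure alone: at least 1 transcript with 2 or more exons, and a longest transcript of at least 200 bases. The other 2499 had a single exon. No expression level entered the choice, although a locus is in the tables only where reads were assembled or an annotated transcript without a symbol lies. The 519 loci held 859 transcripts, of which 297, in 147 loci, carried Ensembl identifiers.

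Sertoli cells line the seminiferous tubule of the testis and nurse the germ cells. The RNA was from mouse lines of these cells, 3 of which expressed a GFP reporter labelled Y-GFP (GFP-positive 2, 4 and 7, phenotype Green) and 3 of which did not (GFP-negative 9, 11 and M, phenotype Non-green). The labels give no strain, age or treatment. They do not say whether a line is a clone, nor that the replicates are separate cultures or animals, and the p-values therefore measure only the spread between these libraries, which may be technical. Total RNA was depleted of ribosomal RNA before strand-specific libraries were made.

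Loci without a symbol are a mixed class. Long noncoding RNAs are often spliced, low in level and placed beside or opposite coding genes, and transcripts that start head to head often share a promoter region. Unspliced precursor RNA, repeated elements and abundant structural RNAs can also be assembled into such loci.

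The loci lie on build mm39 and the genome used as reference is GRCm38, so the sequences of the loci themselves were not analysed here. A reference sequence of a neighbouring gene bears on the results. It is the promoter of Fam120a, shown because MSTRG.5470 starts 317 bases from that gene in the opposite direction and the levels of the locus and the gene differed in opposite directions. The window runs from 250 bases before the gene start to 50 after it (RefSeq, GRCm38.p6, chr13:48968011-48968310, minus strand). Capitals mark GGGCGG, the core of the GC box, on either strand, and matches may overlap.

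Fam120a promoter: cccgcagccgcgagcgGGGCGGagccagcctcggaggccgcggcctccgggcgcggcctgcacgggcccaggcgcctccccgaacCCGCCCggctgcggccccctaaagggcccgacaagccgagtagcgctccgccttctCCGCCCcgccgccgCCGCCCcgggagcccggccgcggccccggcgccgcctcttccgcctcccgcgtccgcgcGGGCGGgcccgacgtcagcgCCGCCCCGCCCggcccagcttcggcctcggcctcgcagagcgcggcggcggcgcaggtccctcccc

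The Fam120a window was 84.3% G and C, with 54 CpG dinucleotides and 7 matches of GGGCGG, the highest of the 22 head-to-head windows on each measure. The window of Heatr6, another called partner, had 50% G and C, 4 CpG and 0 matches. The windows of Slc7a1, also called, had 65% and 51.7% G and C, 27 and 7 CpG, and 1 and 0 matches. Of 32851 RefSeq promoters of the same length, 35.7% held at least 1 match, with medians of 52.7% G and C and 7 CpG. The 22 promoter windows of the 17 genes that could be matched among the head-to-head partners had medians of 60.8% and 20, and 14 of the 22 (63.6%) held the motif. Srsf4 and Snhg7os, for example, entered with several windows each. A match is a string of letters in the window and says nothing of a bound factor.

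The libraries differed in ways that touch the results. Depth was 11.2 to 11.8 Gb of aligned bases in the GFP-positive and 8.25 to 10.02 Gb in the GFP-negative libraries. Sertoli markers summed to 1755 to 3554 scaled FPKM against 839 to 3416 (FPKM is fragments per kilobase of transcript, relative to library depth). Sox9 and Gata4 were lower and Dmrt1 higher in the GFP-positive libraries, and Rhox5 was near 0 in all 6. Germ cell markers summed to 38.2 to 165 in the GFP-positive and 1.27 to 3.50 in the GFP-negative libraries, with 6 of 7 tested members higher and the sperm protamines Prm1 and Prm2 at 0 in every library. Peritubular myoid markers summed to 48.4 to 456 against 133 to 531, with Myh11 and Actg2 lower of 4 tested, and Leydig markers to 18.4 to 45.2 against 30.1 to 67.5, with Insl3 lower of 3 tested. Macrophage markers ran from 1.63 to 2.22 against 3.48 to 7.86, and endothelial markers from 3.44 to 6.26 against 7.59 to 12.2. The part that other cell types had in the differences below was not tested, and in bulk samples fewer cells of a type and less RNA per cell cannot be told apart.

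MSTRG.4501 and MSTRG.9014 held nearly all of the reads assigned to the 519 loci. The 519 loci took 10.4, 17.4 and 15.2% of the aligned bases in GFP-positive 2, 4 and 7, and 10.02, 26.7 and 16.3% in GFP-negative 9, 11 and M. Without that pair the share was 0.358, 0.429 and 0.528% against 0.775, 0.744 and 0.728%. Every GFP-negative library was then above every GFP-positive one.

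MSTRG.4501, on chromosome 12, had 2 exons that summed to 582 bases. MSTRG.4501 took 7.42, 12.7 and 10.6% of aligned bases in the GFP-positive and 4.9996, 0.904 and 1.58% in the GFP-negative libraries. All GFP-positive values were higher, yet the log2 difference of 2.40 (SE 1.35) did not pass the test (limma, adjusted p = 0.198). It passed in limma without the variance trend (adjusted p = 0.0172) and without GFP-negative 9 (adjusted p = 0.0349), and in no other alternative that tested it. The GFP-negative libraries spread widely, with GFP-negative 9 nearest to the GFP-positive ones.

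MSTRG.9014 (mm39, chr17:40153887-40159723, plus strand) lay opposite AY036118 and had transcripts of up to 4 exons and 5790 bases. Its longest mean intron was 51 bases, so nearly all of its span was counted as exon. It took 2.64, 4.31 and 4.12% of aligned bases in the GFP-positive libraries and 4.24, 25.1 and 13.97% in the GFP-negative ones. GFP-negative 11 and M stood apart, while GFP-negative 9 lay inside the GFP-positive range. Its log2 difference was -1.64 (SE 0.91, limma, adjusted p = 0.193), and that of AY036118 was -1.44 (adjusted p = 0.237). MSTRG.9014 passed in limma with an equal FPKM sum (adjusted p = 0.0153) and without GFP-negative 9 (adjusted p = 0.0231), and in no other alternative that tested it.

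**Figure D1:**
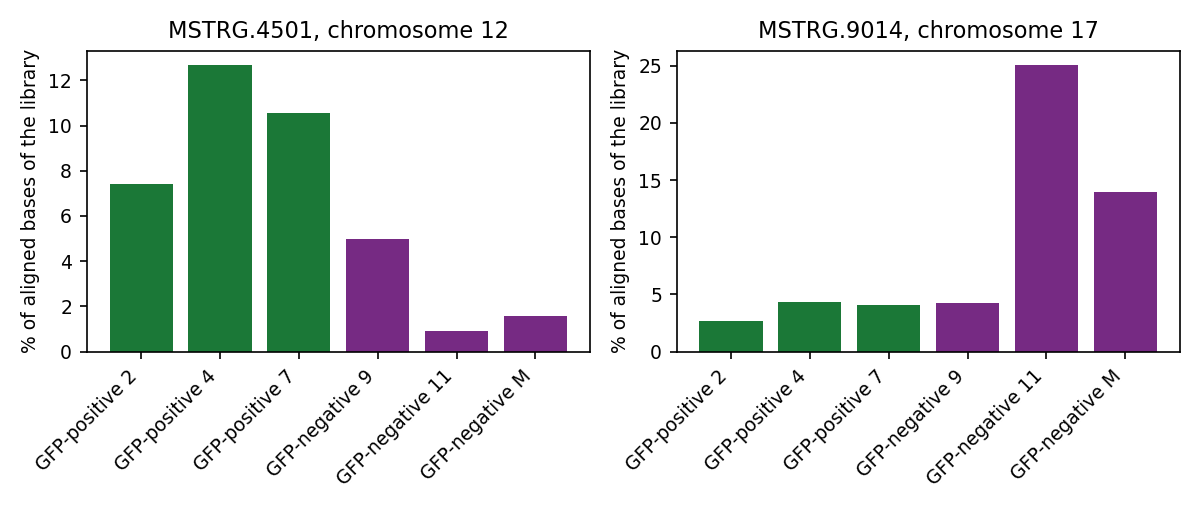
Share of aligned bases (y axis, percent of the library) taken by MSTRG.4501 (left) and MSTRG.9014 (right) in each library, 1 bar per library with no error since each is a single value, green for GFP-positive and purple for GFP-negative. MSTRG.4501 ran from 7.42 to 12.7% in the GFP-positive libraries, and MSTRG.9014 reached 25.1% in GFP-negative 11.

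The description as spliced rests on exon number and gap size, and splicing itself was not tested. Of the 519, 368 had at most 2 exons and 370 had 1 transcript, with 257 on the plus and 262 on the minus strand. The median span was 5798 bases and the median longest transcript 1242 bases. Exon positions are not in the tables, so intron size was taken as span minus transcript length, divided by the number of introns. In 64 loci no transcript had a mean intron of 50 bases or more, and the smallest value was 20 bases. A further 46 loci, MSTRG.9014 among them, had a longest mean intron of 50 up to 100 bases. In MSTRG.4501 it was 201723 bases. Gaps under 50 bases occurred in 81 of 522 member transcripts with 2 exons (15.5%) and in 55 of 22747 such transcripts of named genes (0.242%). All 81 were assembled transcripts, and none of the 130 with an Ensembl identifier had one.

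Loci with short gaps or short introns had negative median differences, but most of them were not called. Of the 49 tested loci with gaps under 50 bases 17 were lower and 0 higher in the limma test (0 higher at an unadjusted p under 0.05 as well), and their median log2 difference was -0.82. At 50 up to 100 bases 2 were higher and 8 lower of 35, with a median of -0.92, and at 100 up to 1000 bases 7 were higher and 12 lower of 64, with a median of -0.39. Loci with introns of 1000 up to 10000 bases had 11 higher and 6 lower of 99, with a median of 0.22. At 10000 bases or more there were 5 higher and 2 lower of 33, with a median of 0.36. Among all 15307 features tested 16.6% were higher and 13.7% lower. From introns of 1000 bases up, both counts lay below these shares. The 280 loci tested here are those with a mean scaled FPKM of at least 0.5, and differences are GFP-positive minus GFP-negative.

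**Figure D2:**
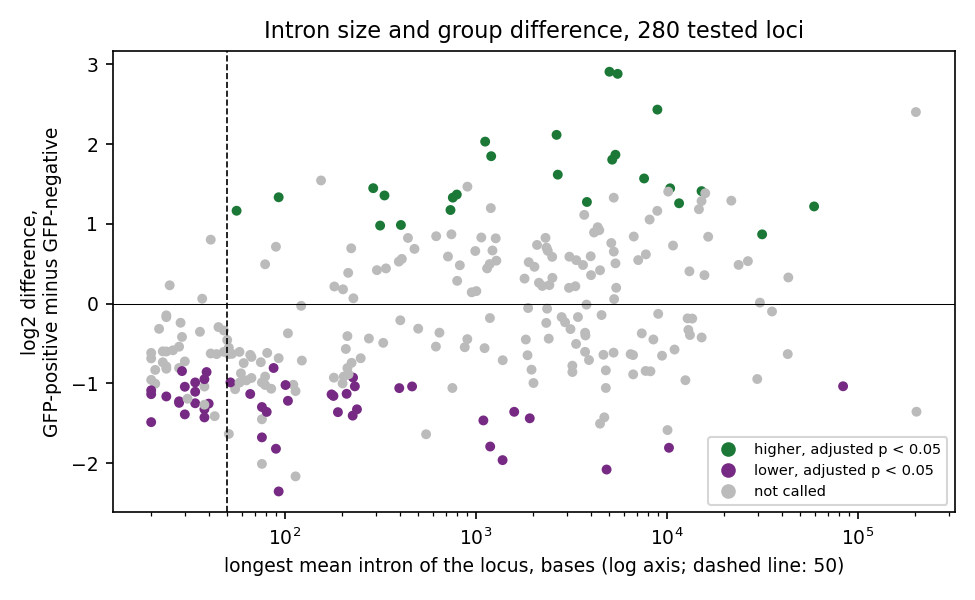
Longest mean intron of each of the 280 tested loci (x axis, bases, log scale, dashed line at 50) against its log2 difference between groups (y axis), 1 point per locus, green for higher and purple for lower at an adjusted p under 0.05, grey for not called. No locus left of the line was called higher and 17 were called lower.

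Among tested loci, falls outnumbered rises, the reverse of all features. In the GFP-positive libraries 25 of 280 loci were higher (8.93%) and 45 were lower (16.1%), against 16.6% higher and 13.7% lower among all 15307 features (limma, Benjamini-Hochberg adjusted p under 0.05). Together 25% of the loci were called, against 30.3% of all features. The median log2 difference was -0.42 for the loci and 0.03 for all features. The 1227 tested single-exon unnamed loci went the other way, with 541 higher, 48 lower and a median of 1.02. Groups did not overlap for 127 of the 280 loci (45.4%), against 47.6% of all features. Low level kept 239 loci out of the test, 24 of them at 0 in every library. Of the 280, 211 had a mean of at least 0.5 in both groups, 29 reached the limit through the GFP-positive and 40 through the GFP-negative libraries only, so the counts do not describe all 519. The 3 loci nearest below the limit had means of 0.492 to 0.497, and the 3 nearest above it 0.511 to 0.532.

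These counts rested on particular libraries. The test called 3 higher and 0 lower without GFP-positive 7 (unadjusted p under 0.05 in 23 and 76), and 2 and 3 without GFP-negative M. Counts were 28 and 11 without GFP-positive 2, 9 and 18 without GFP-positive 4, and 14 and 18 without GFP-negative 11. Without GFP-negative 9 they were 40 and 68. Calls over all features moved as well, from 4635 to 861 without GFP-positive 7, 538 without GFP-negative M and 6209 without GFP-negative 9. GFP-negative 9 was the lowest GFP-negative library for 31 of the 45 lower loci and the highest for 18 of the 25 higher ones. More loci were lower than higher under every scaling tried, but the size of the split varied, and scaling moved the split of all features too. Of all called features 54.8% were higher in the main fit, 48.6% with quantile normalization and 8.52% with an equal FPKM sum. Among called loci the shares were 35.7, 26.6 and 3.16%. The same order under these scalings is therefore no separate support for a trait of the loci. With no filter on level the order reversed, at 8 higher and 2 lower of 495 tested. At an unadjusted p under 0.05 in that limma fit, 55 were higher and 80 lower. When all libraries were given the same FPKM sum, 5 were higher and 153 lower, with a median of -1.15 where the median of all features was -0.85. MSTRG.22282 and MSTRG.3787 were the only loci called in all 6 fits that left out 1 library, and both had passed the filter through the GFP-positive libraries alone.

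Transcript length moved with the differences, in these loci and in named genes alike. Loci with a longest transcript of 200 up to 1000 bases had a median log2 difference of 0.42 (13 higher and 8 lower of 62), and those of 1000 up to 3000 bases 0.44 (9 and 3 of 75). At 3000 up to 10000 bases the median was -0.68 (1 and 20 of 92), and at 10000 or more it was -0.72 (2 and 14 of 51). Named genes in the same bins had medians of 0.61, 0.36, -0.24 and -0.58. Of all features tested in the main fit, 16.6% were higher and 13.7% lower. With the trend on length removed from each library, 7 loci were higher and 26 lower, and their median was -0.16 against 0.03 for all features. The main-fit shares do not apply there, since that fit called 2604 of 15307 features. Of all features called in it 46.9% were higher, against 21.2% of the called loci. The 29 tested loci with an Ensembl transcript had a median of 0.59 (4 higher, 1 lower), and the 251 without one -0.55 (21 higher, 44 lower).

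Most loci lay on top of a named gene. Of the 519, 373 (71.9%) overlapped a named transcript, 258 of them on the opposite strand and 115 on the same strand only. A further 21 started within 1 kb of a gene head to head with it, 41 others were within 5 kb of a gene, 59 at 5 to 50 kb and 18 beyond 50 kb. The remaining 7 were on scaffolds with no named gene. The median distance of those at a distance was 6447 bases and the largest 321899. Chromosome 1 held the most loci, 42, followed by chromosome 4 with 39 and chromosome 11 with 37. Chromosome X held 23 and chromosome Y 2.

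The lower calls gathered on the same strand as named genes. Of 100 tested loci there, 25 were lower and 3 higher, with a median of -0.70, so 35.7% of the tested loci held 55.6% of the lower calls. These 25 include 9 loci in a single gene, Msi2. Among all features tested 16.6% were higher and 13.7% lower. Loci opposite a named gene had 8 higher and 4 lower of 71, with a median of -0.10, and 187 of the 258 were too low to test. Loci within 5 kb had 6 higher and 4 lower of 32 (median 0.22), and those at 5 to 50 kb 5 and 6 of 45 (median 0.29). Counts in these classes lay near or below the shares of all features, and those opposite a gene lay below both. Of the 10 tested head-to-head loci, 1 was higher and 0 lower in the limma test (0 lower also at an unadjusted p under 0.05), with a median of 0.58. Of the 16 beyond 50 kb, 1 was higher and 5 lower, with a median of -0.16. These 5 include MSTRG.22763 and MSTRG.22766, which belong to a single row of neighbouring loci at the end of chromosome X, described below.

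**Figure D3:**
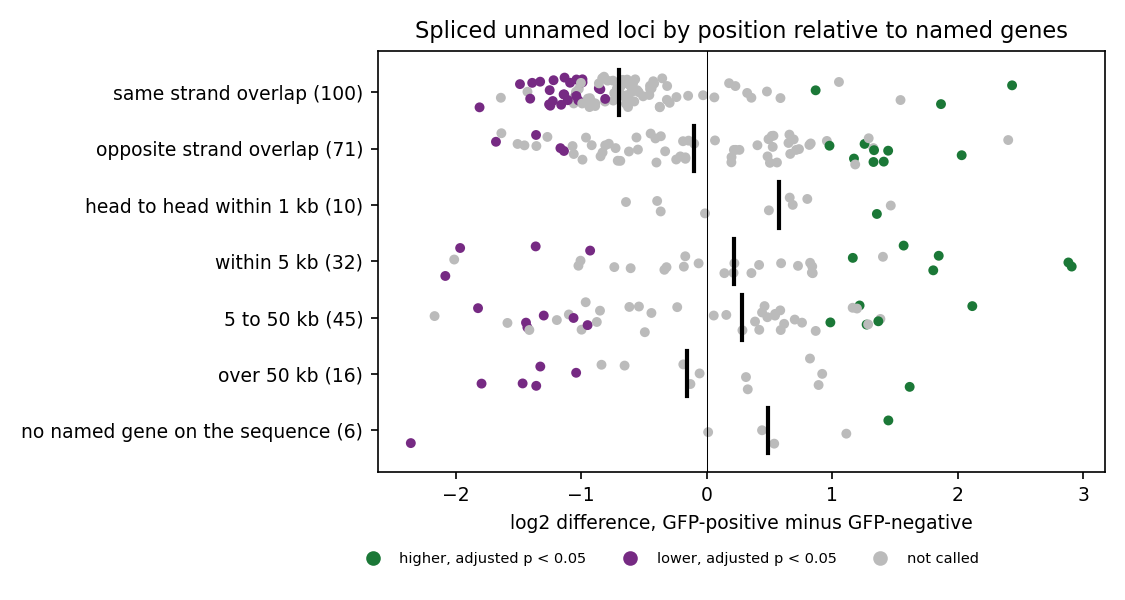
Log2 difference, GFP-positive minus GFP-negative (x axis), of each tested locus by its position relative to named genes (y axis, number tested in parentheses), with the class median as a black bar, green for higher, purple for lower and grey for not called. The same-strand class holds 25 of the 45 lower calls, 9 of them in the gene Msi2, and its median is -0.70.

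Loci on the same strand as a gene had mostly negative differences, and so had those genes. Both were tested for 94 pairs, in which 84 loci and 81 genes had a negative difference. The sign was the same in 81 pairs, 76 of them negative, with Pearson's r of 0.38 and Spearman's rho of 0.14 across pairs. The pairs share libraries, 1 gene may hold several loci, and reads of a gene may be counted in a locus within it. With 1 locus per gene, 64 loci and 62 genes of 73 pairs were negative, 61 pairs had the same sign and r was 0.34. With most values negative on both sides, many same-sign pairs would arise without any relation between locus and gene. In 10 pairs both were called, 9 of them in the same direction. The exception, named after its values were seen, was MSTRG.11610 in Tcp11l1, which was lower (-1.22, adjusted p = 0.0265) where the gene was higher (1.18, adjusted p = 0.0240). For 42 opposite-strand pairs, in which 19 loci and 23 genes were negative, 20 had the same sign and r was -0.09.

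Msi2, which encodes a Musashi RNA-binding protein, carried 9 of the loci on chromosome 11, the most of any gene, and all 9 were lower. This group was noticed after its values were seen, and the 9 share 1 gene, so they are not independent. Their log2 differences ran from -1.39 to -0.85, with a median of -1.11. Levels were low, at 0.103 to 0.814 scaled FPKM in the GFP-positive and 0.443 to 2.31 in the GFP-negative libraries, and for each locus the groups did not overlap. GFP-negative 9 was the lowest GFP-negative library for all 9. Their spans were 4076 to 19422 bases with mean introns of 28 to 233 bases, under 50 in 4 of them. Msi2 itself had 22.8, 14.8 and 12.6 scaled FPKM against 24.1, 18.5 and 24.3, groups that overlap, and its log2 difference was -0.44 (SE 0.28, limma, adjusted p = 0.255). None of the 9 was called without GFP-positive 7, where no locus was called lower. Across the class, 94 genes held the 115 same-strand loci, 12 of them more than 1, and the 25 lower calls lay in 16 genes.

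Tex14 encodes a protein of the intercellular bridges between germ cells, and it carried both of the largest same-strand rises. MSTRG.3533 (chr11:87351663-87363804, plus strand, 2 exons) had 27.5, 50.03 and 48.5 scaled FPKM in the GFP-positive and 27.2, 2.96 and 4.10 in the GFP-negative libraries. GFP-negative 9 all but reached GFP-positive 2, and the other GFP-negative libraries were far below. The log2 difference was 2.43 (SE 0.69, limma, adjusted p = 0.0314). MSTRG.3532, upstream in the same gene and named after its values were seen, had a difference of 1.87 (adjusted p = 0.0412) with overlapping groups. Tex14 itself differed by 1.12 (SE 0.41, adjusted p = 0.0650).

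Other same-strand loci are given with their gene. MSTRG.10387, within Klf9, which encodes a Krüppel-like transcription factor, had 0.342, 0.210 and 0.0922 scaled FPKM against 0.972, 1.72 and 1.89, and its gap was 20 bases. It was lower by a log2 difference of -1.49 (SE 0.31, adjusted p = 0.0121), and Klf9 was lower too (-1.30, adjusted p = 0.0317). MSTRG.15361 in D5Ertd579e had 4.27, 3.91 and 3.42 against 10.4, 10.8 and 28.3, a difference of -1.81 (SE 0.38, adjusted p = 0.0128, and 0.123 with the most abundant transcript only), while the gene differed by -0.11 (adjusted p = 0.765). MSTRG.10927, in the actin regulator gene Abi1, was among the 8 most abundant loci with 6.12, 40.8 and 33.7 against 91.0, 40.7 and 47.7. Its groups overlapped and it did not pass the test (-1.43, adjusted p = 0.123).

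**Figure D4:**
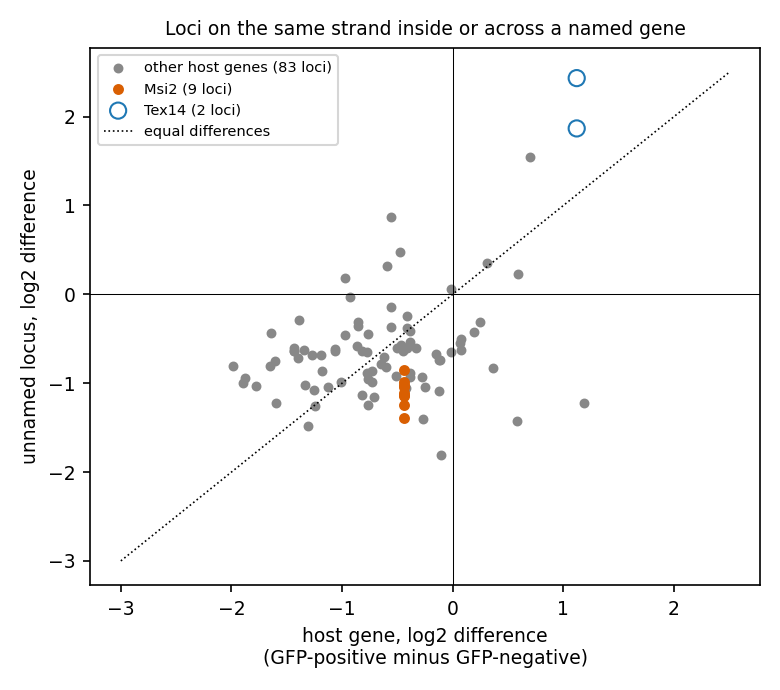
Log2 difference of the gene (x axis) against that of the unnamed locus on its strand (y axis) for the 94 pairs tested, 1 point per locus, with the 9 Msi2 loci in orange and the 2 Tex14 loci as blue rings. The Msi2 loci stand in 1 column at -0.44, all below the dotted line of equal differences.

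Head-to-head loci mostly had the opposite sign from the gene beside them. Of 8 tested pairs, in which 3 loci and 6 genes were negative, 1 had the same sign, with Pearson's r of -0.65 and Spearman's rho of -0.57, a description over 8 pairs that share libraries. MSTRG.5470 (chr13:49121810-49123386, plus strand), which holds an Ensembl transcript, had 6.38, 6.09 and 6.51 scaled FPKM in the GFP-positive and 4.01, 1.40 and 1.72 in the GFP-negative libraries. The GFP-positive values were close together and all above the GFP-negative ones. The log2 difference was 1.36 (SE 0.34, limma, adjusted p = 0.0213). It did not pass with the length trend removed (0.85, adjusted p = 0.103) or with an equal FPKM sum (0.48, adjusted p = 0.292). Fam120a, an RNA-binding protein gene whose promoter is printed above, had 17.2, 17.3 and 17.2 against 31.7, 48.6 and 39.7, and was lower (-1.17, SE 0.24, adjusted p = 0.0124). MSTRG.8932 beside Vars, the valyl-tRNA synthetase gene, and MSTRG.4110 beside Mafg, a small Maf transcription factor gene, were looked at after their values were seen. Neither passed, at 1.47 (adjusted p = 0.0955) and 0.69 (adjusted p = 0.0790), nor did Vars (-1.06, adjusted p = 0.0668) or Mafg (-1.44, adjusted p = 0.0503).

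Among loci opposite a gene, MSTRG.1622 (chr10:23661234-23663085, plus strand) rose together with Rps12, a ribosomal protein gene on the other strand. It had 37.3, 31.4 and 32.3 scaled FPKM against 14.4, 17.6 and 8.77, with no overlap. The log2 difference was 1.33 (SE 0.29, limma, adjusted p = 0.0142), and that of Rps12 was 1.71 (adjusted p = 0.0116). For the locus it was 0.77 (adjusted p = 0.0924) with the length trend removed and 0.33 (adjusted p = 0.422) with an equal FPKM sum. No source used here gives the strand setting of the assembly, so reads of a gene and its antisense partner may not be fully separated. In the other 2 pairs with both members called, named after their values were seen, the signs were opposite: MSTRG.9229 (-1.36) with Ankrd12 (1.14), and MSTRG.18927 (1.17) with Fam168a (-1.22). Of the largest changes, MSTRG.2218 opposite Gm16271 had 1.87, 2.84 and 4.43 against 0, 0.613 and 0.525 (2.03, adjusted p = 0.0113, and 0.101 with the length trend removed). MSTRG.44 opposite Sntg1, a syntrophin gene, had 0.643, 3.08 and 2.39 against 6.92, 9.15 and 4.91 (-1.68, adjusted p = 0.0241, and 0.0633 with the length trend removed).

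The 2 largest rises were in loci of several exons near, but outside, named genes. MSTRG.22282 (chrX:65824434-65858961, minus strand, 5 exons, 1976 bases from Gm14681) had 7.68, 1.64 and 3.47 scaled FPKM in the GFP-positive and 0.0581, 0.0407 and 0.0443 in the GFP-negative libraries. It was close to 0 in every GFP-negative library, and its log2 difference was 2.91 (SE 0.45, limma, adjusted p = 0.00658). MSTRG.3787 (chr11:101530804-101544731, plus strand, 3 exons) lay 3878 bases downstream of Rdm1, a DNA repair gene of the RAD52 motif family, on the same strand. Its levels were 9.44, 2.17 and 4.04 against 0.277, 0.204 and 0.0508, a log2 difference of 2.88 (SE 0.45, adjusted p = 0.00689), and Rdm1 rose as well (1.45, adjusted p = 0.00883). In both loci GFP-positive 2 was highest and GFP-positive 4 lowest of its group. The summed germ cell markers had the same order, at 165, 38.2 and 66.6 in GFP-positive 2, 4 and 7, and their part in these rises was not tested.

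Further rises lay on several chromosomes. MSTRG.22439 (chrX:95003755-95011323, 5 exons), 3187 bases upstream of Las1l, a ribosomal RNA processing gene, had 38.1, 15.2 and 17.5 scaled FPKM against 9.86, 2.28 and 7.64. It was higher by 1.85 (SE 0.52, adjusted p = 0.0306) where Las1l was lower (-1.80, adjusted p = 0.0102). MSTRG.10493 on chromosome 19 differed by 2.12 (adjusted p = 0.0191), with 5.26, 1.04 and 3.42 against 0.221, 0.681 and 0. MSTRG.2853, 1013 bases from Gm12184 on chromosome 11, differed by 1.81 (adjusted p = 0.0252), and Gm12184 rose by 0.94 (adjusted p = 0.0228). MSTRG.1242, 1591 bases from the Fc receptor gene Fcgr3, had 4.68, 9.79 and 7.62 against 0.939, 2.86 and 2.93 (1.57, adjusted p = 0.0233). MSTRG.6828 on chromosome 14, 162107 bases from its nearest named gene, had 3.12, 3.56 and 3.83 against 1.63, 0.251 and 0.880 (1.62, adjusted p = 0.0176). In all 5 of these loci the GFP-positive libraries lay above the GFP-negative ones, as the rule for the largest rises required. With the length trend removed none of the 5 passed (adjusted p 0.0568 for MSTRG.22439, 0.146 for MSTRG.10493, 0.145 for MSTRG.2853, 0.267 for MSTRG.1242 and 0.0840 for MSTRG.6828).

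The largest falls were spread over chromosomes and levels, and MSTRG.7423 was also among the 8 most abundant loci. It lay at chr15:82246517-82252891 (plus strand, 3 exons), 1837 bases from the cytochrome P450 gene Cyp2d22, and had 5.52, 24.1 and 12.9 scaled FPKM against 67.3, 41.4 and 40.8. As the rule for the largest falls required, all GFP-positive libraries were lower. The log2 difference was -1.96 (SE 0.48, limma, adjusted p = 0.0191), while Cyp2d22 differed by 0.06 (adjusted p = 0.924). The call ended with the most abundant transcript only (-0.71, adjusted p = 0.779) and once the trend on length was removed (-1.55, adjusted p = 0.0601). MSTRG.12365 on chromosome 2 had 1.02, 9.14 and 3.97 against 23.2, 11.5 and 16.97 (-2.08, adjusted p = 0.0317, and 0.112 with the length trend removed). MSTRG.18190 on chromosome 7 had 1.12, 1.47 and 0.925 against 3.89, 4.58 and 3.46 (-1.43, SE 0.26, adjusted p = 0.00947), with a gap of 38 bases. Counted over transcripts of 2 or more exons only, it fell below the filter. It lay 6114 bases from Eid2, a differentiation inhibitor gene, which rose (0.87, adjusted p = 0.0360). MSTRG.14777, 9510 bases from Pramel14, a gene of the PRAME family, differed by -1.44 (adjusted p = 0.0348). MSTRG.4250 on chromosome 12 was listed at 0 in all GFP-positive libraries and at 3.08, 1.78 and 0.175 in the GFP-negative ones (adjusted p = 0.0371). It thus passed the filter through the GFP-negative libraries alone.

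Other abundant loci had lower means in the GFP-positive libraries without passing the test. MSTRG.5528, 15277 bases from the growth factor receptor gene Fgfr4, had 2.18, 20.0 and 30.1 against 63.6, 46.0 and 50.8 (-2.17, adjusted p = 0.0617). MSTRG.11438, near Gm13655 on chromosome 2, had 19.6, 6.15 and 8.86 against 14.9, 115 and 45.6 (-2.01, adjusted p = 0.0540). The groups did not overlap for MSTRG.5528 and overlapped for MSTRG.11438, where GFP-negative 9 lay within the GFP-positive range.

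**Figure D5:**
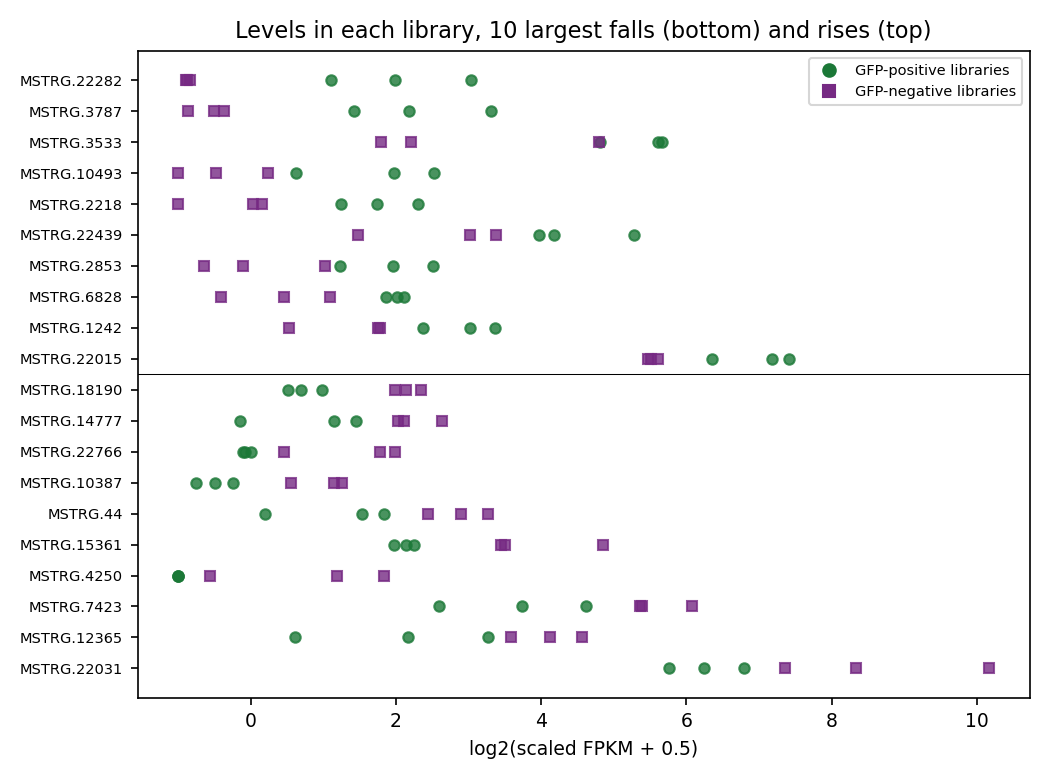
Level of each library as log2(scaled FPKM + 0.5) (x axis) for the 10 largest rises (top) and 10 largest falls (bottom), 1 row per locus, green circles for the 3 GFP-positive and purple squares for the 3 GFP-negative libraries. MSTRG.22282 and MSTRG.3787 have the widest gap between groups among the rises, and for MSTRG.3533 GFP-negative 9 sits at GFP-positive 2.

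Of the 24 called loci chosen by the naming rule, 22 lost the call without GFP-positive 7, with adjusted p from 0.0531 to 0.102, and 19 without GFP-negative M (0.0527 to 0.119). The call was lost by 10 without GFP-positive 4 (0.0525 to 0.0961), by 8 without GFP-positive 2 (0.0504 to 0.0848), by 8 without GFP-negative 11 (0.0538 to 0.0882) and by 1 without GFP-negative 9 (0.0610), where MSTRG.4250 fell below the filter and was not tested. MSTRG.22282 and MSTRG.3787 lost it in none. Like these, MSTRG.10493 and MSTRG.2218 reached the filter through the GFP-positive libraries alone. MSTRG.4250, MSTRG.10387, MSTRG.22763 and MSTRG.22766 reached it through the GFP-negative libraries alone. For such loci the filter favours a difference in that direction, and their adjusted p is no separate support. Leaving out a library leaves 2 against 3, which also lowers what the test can detect. Other processing ended calls too: 19 of the 24 with no filter on level (adjusted p 0.0514 to 0.133), 12 with the length trend removed (0.0568 to 0.267), 8 with an equal FPKM sum (0.0587 to 0.422), all of them rises, and 5 with the most abundant transcript only (0.0505 to 0.779).

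The 7 loci on scaffolds held both a large fall and a rise. MSTRG.22031 (scaffold MU069435.1, 1 to 1261) had 53.9, 110 and 74.9 scaled FPKM against 163, 1152 and 323. GFP-negative 11 was far above all other libraries, and the log2 difference was -2.36 (SE 0.65, limma, adjusted p = 0.0274). MSTRG.22015 (scaffold JH584295.1, 66 to 1479, 5 exons, with an Ensembl transcript) had 81.1, 170 and 144 against 48.5, 43.8 and 45.2, and was higher by 1.45 (SE 0.32, adjusted p = 0.0143). It did not pass with the length trend removed (0.66, adjusted p = 0.135) or with an equal FPKM sum (0.43, adjusted p = 0.248). MSTRG.22012, with 8 exons on scaffold GL456233.2, had 16.7, 8.80 and 12.7 against 12.4, 2.98 and 4.15 and did not pass (1.11, adjusted p = 0.103).

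At the end of chromosome X, 8 of the loci lay in a row between Mid1 and Asmt. Mid1, a microtubule-associated ubiquitin ligase gene, spans the boundary of the pseudoautosomal region, in which X and Y share sequence, and Asmt, a melatonin synthesis gene, lies within that region. Of the 8 loci 4 were lower and 1 was higher, where 13.7% of all features tested were lower and 16.6% higher. The starts of the first 5 were spaced by 51919, 51804, 51440 and 53998 bases. The row was noticed after its values were seen, and its loci are evenly spaced neighbours that may not be independent. Mid1 had 2.63, 3.66 and 3.52 scaled FPKM against 5.83, 8.68 and 11.1 and was lower (-1.23, SE 0.29, limma, adjusted p = 0.0180). Gm55594, the named gene nearest to MSTRG.22763 at 51476 bases, did not pass (-0.51, SE 0.47, adjusted p = 0.419). Asmt was at or below 0.184 in every library.

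MSTRG.22763 (chrX:168857110-168859028) had 0.372, 0.320 and 0.442 scaled FPKM against 1.34, 1.34 and 2.85, a log2 difference of -1.36 (SE 0.32, adjusted p = 0.0169). MSTRG.22766 (chrX:169012273-169015045) had 0.498, 0.432 and 0.449 against 0.867, 2.93 and 3.47, a difference of -1.47 (SE 0.41, adjusted p = 0.0287). The GFP-positive values of both were close together and below all GFP-negative ones, which the naming rule required of MSTRG.22766. MSTRG.22764 (-1.04, adjusted p = 0.0410) and MSTRG.22765 (-1.79, adjusted p = 0.0444) between them were lower too, the latter with overlapping groups. MSTRG.22768 (chrX:169090588-169098051, 8 exons) was higher, at 14.1, 22.0 and 18.5 against 8.11, 5.60 and 6.40 (1.37, SE 0.26, adjusted p = 0.0105). It did not pass with an equal FPKM sum (0.39, adjusted p = 0.273) or with the most abundant transcript only (0.96, adjusted p = 0.132). Its neighbour MSTRG.22767, which with 10 exons had the most of any tested locus, had 5.61, 6.25 and 4.54 against 3.66, 10.1 and 7.14, groups that overlap (-0.23, adjusted p = 0.632).

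On chromosome Y, 1 of the 2 loci passed the filter. MSTRG.22798 (chrY:90740213-90742456, plus strand, 2 exons, 21240 bases from Gm21860) had 0.312, 0 and 0.184 scaled FPKM in the GFP-positive and 0.527, 1.83 and 0.422 in the GFP-negative libraries. The GFP-negative values were all higher, but the log2 difference of -0.996 (SE 0.41) did not pass the test (limma, adjusted p = 0.0915). The other Y locus was listed at 0 in all 3 GFP-positive libraries and below the filter.

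For comparison, a list of 40 named long noncoding genes, Malat1 and Neat1 among them, was set beside the loci. The tables held 38 of them and 32 were tested. Of these 3 were higher and 3 lower, and the median log2 difference was -0.03. Both counts lay below the shares of all features tested, 16.6% higher and 13.7% lower. The shares of the unnamed loci were 8.93% and 16.1%.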

How the data were processed

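The authors deposited 1 table per library listing the same 153503 transcripts with FPKM and mean coverage, per the file headers; coverage over FPKM gave the total aligned bases. Build mm39, HISAT2, StringTie and Trimmomatic are listed in the submitters' processing notes. Versions, annotation release and strand setting are not given in the sources used here. Read counts were not used, so values carry no counting interval; the median coverage of the tested loci was 10.1-fold to 15.8-fold per library.

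Deposited FPKM was summed per gene symbol or unnamed locus, and 1425 unnamed transcripts at mixed loci (1.63 to 6.34% of FPKM) were left out. Scaling between libraries used median-of-ratios factors from 12678 features. Features with a mean scaled FPKM of at least 0.5 and a longest transcript of at least 200 bases entered limma 3.58.1 (R 4.3.3, eBayes with trend) on the scale log2(scaled FPKM + 0.5), with Benjamini-Hochberg adjustment over 15307 features and a threshold of 0.05. Log2 differences on this scale understate changes of low features. All 6 libraries entered 1 fit. The method was tested on simulated data. Positions and distances come from the deposited transcript coordinates; GRCm38 annotation gave only the printed promoter and the promoter comparison. The identity of the most abundant locus is not reported here. Tables were joined in Python 3.11.15 with pandas 2.3.3.

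The rule for naming took the 8 highest loci, the 10 loci that rose most and the 10 that fell most (called, groups not overlapping), tested loci on chromosome Y, the 3 with the most exons, and up to 2 called per position class. Members and lists, including cell markers and noncoding genes, were chosen with earlier results of these data known. There were 18 alternatives, covering scaling, filter, pseudocount, variance trend, length, transcript choice and left-out libraries.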

Additional observations from a re-analysis of the deposited data

How the results depend on the processing

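No called named locus changed direction under any alternative that tested it, but of 24 such calls 19 were lost with no filter, 12 after removal of the length trend, 8 with an equal sum of FPKM, 5 with the most abundant transcript only and 3 with the added scaling below. The main counts were 25 higher and 45 lower loci, and 4635 features called. Leaving out 1 library gave 2 to 40 higher, 0 to 68 lower and 538 to 6209 features called. The 0 is from limma without GFP-positive 7, where 76 loci were lower at an unadjusted p under 0.05. With no filter, 8 loci were higher, 2 lower and 1778 features called, with 495 loci tested. With an equal sum of FPKM the counts were 5, 153 and 7455, with the median of all features at -0.85. With an equal sum computed without the 7 features of mean FPKM of at least 4000, an alternative chosen after seeing the data, 14 were higher and 97 lower, with that median at -0.39. With the length trend removed the counts were 7, 26 and 2604. With the most abundant transcript only, 14 were higher. The cause of the changes under scaling and transcript choice was not tested. With pseudocounts of 0.1 or 1, a filter of 1, FPKM as deposited, quantile normalization, no variance trend, or transcripts of 2 or more exons only, counts stayed within 1.5 times. Non-overlapping loci near a named gene numbered 62 within 5 kb, 37 within 1 kb and 82 within 10 kb. No paired analysis was possible because the groups share no replicate numbers. Depth without counts limits what can be said of loci near the filter.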
